A study of Mus musculus with 6 samples.

Results

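Voltage-gated calcium channels are built around a pore-forming alpha1 subunit, and 8 of the genes for it were examined here in mouse hippocampus. They were chosen by gene symbol, as the genes of the P/Q, N, L, R and T types, and all 8 were found among the 30707 genes of the deposited table. The study compared hippocampus infected with a control virus with hippocampus infected with a virus that knocks down SFRS8, the older name of the splicing regulator Sfswap. Each group had 3 samples. The labels give no strain, age or sex, and do not name the virus, its promoter or the cells that it reached. Nor do they tie the samples to separate animals, and the p-values therefore reflect only the spread among these 6 samples, part of which may be technical.

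The alpha1 subunit holds the voltage sensor and the calcium-selective pore, and it decides the type of current. P/Q-type and N-type channels sit in presynaptic terminals and trigger transmitter release. L-type channels lie on cell bodies and dendrites and link calcium entry to gene transcription, R-type channels act in dendrites, spines and terminals, and T-type channels open close to the resting potential and drive burst firing. The high-voltage types work together with an alpha2delta and a beta subunit, which set how many channels reach the membrane. Transcripts of these genes are spliced in many ways, and the values here are per gene, so which exons were used was not analysed here.

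The read totals by which the FPKM values had been scaled, recovered from the values themselves, were 16622942 to 18097340. Sfswap stood at 18.1 ± 1.32 FPKM in the control samples and 10.2 ± 0.958 in the knockdown samples (SD, n = 3 in each group). FPKM is the number of sequenced fragments scaled to the length of the exons and to the depth of the library. The log2 fold change of Sfswap, taken as knockdown minus control of log2(FPKM + 1), was −0.77 with an adjusted p of 0.0432 in limma. The test covered the 14012 genes that averaged 1 FPKM or more, and 168 of them were called higher and 32 lower at an adjusted p under 0.05. These calls were 1.20% and 0.228% of the genes tested, and with the FPKM sums of all samples set equal they numbered 1 and 2. Without any one sample other than knockdown sample 2, Sfswap had the same direction but an adjusted p of 0.0558 to 0.149.

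None of the 8 genes was called in either direction. Cacna1b, the N-type gene, came nearest: it stood at 0.709 of the control mean, and every knockdown sample was below every control sample. Cacna1h and Cacna1i, both of the T type, stood at 0.757 of the control means and Cacna1d at 0.838, again with no overlap between the groups. Cacna1g, the remaining T-type gene, stood at 1.16 of the control mean, and Cacna1a, Cacna1c and Cacna1e stood at 1.03, 1.01 and 0.914 of theirs, with overlapping groups. At an unadjusted p under 0.05 there were 3 lower members and 0 higher ones, beside 7.98% of all genes tested that were lower and 15.7% that were higher by that rule. The 4 of 8 members whose knockdown values lay wholly below the controls stand beside 11.8% of all genes tested, and the 0 wholly above beside 18.0%. The median log2 fold change of the 8 was −0.17, against 0.02 for all genes tested.

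**Figure D1:**
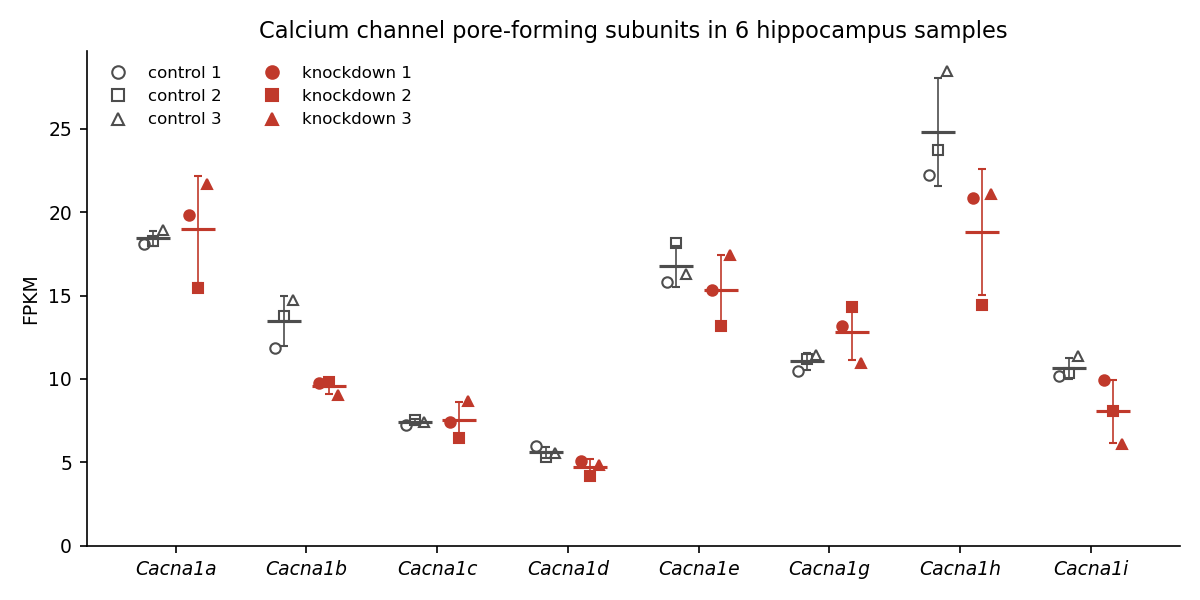
FPKM of the 8 subunit genes (vertical axis, linear from 0) in each control sample (open grey) and knockdown sample (filled red), with a horizontal line at the mean and bars of 1 SD over 3 samples. Cacna1b shows the clearest gap, with 11.9 to 14.8 FPKM in the controls against 9.05 to 9.84 after knockdown.

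Cacna1b encodes the presynaptic N-type channel, the target of omega-conotoxin painkillers. The gene (ENSMUSG00000004113, mm10 chromosome 2, 24603887 to 24763152, minus strand) spans 159.3 kb, and its exons add up to 9942 bases. In the order of the replicate numbers, the controls had 11.9, 13.8 and 14.8 FPKM and the knockdown samples 9.76, 9.84 and 9.05. The lowest control was above the highest knockdown value, and the knockdown samples lay closer together (SD 0.437) than the controls (SD 1.48). The reads behind these levels numbered 2033 to 2637 per control and 1568 to 1720 per knockdown sample. The log2 fold change was −0.45 (SE 0.09, 95% interval −0.67 to −0.23), with an unadjusted p of 0.00198 and an adjusted p of 0.0600 in limma. An exact permutation of the samples, two-sided, gave p = 0.1, below which a design of 3 against 3 cannot go. When reads recovered from the FPKM values were tested with limma's voom, the adjusted p was 0.0393 at a log2 fold change of −0.49, and with trimmed mean scaling added, a setting entered after seeing the data, it was 0.0395 at −0.52. Over all 17 alternatives the adjusted p ran from 0.0393 to 0.182.

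Cacna1a encodes the P/Q-type channel, the main trigger of release at most central synapses. The gene (ENSMUSG00000034656, chromosome 8, 84388440 to 84640246, plus strand) was at 18.1, 18.3 and 19.0 FPKM in the controls. In the knockdown samples it had 19.8, 15.4 and 21.7, so 2 of the 3 were above every control and the remaining one was below. Its log2 fold change was 0.03 (SE 0.12, 95% interval −0.26 to 0.32, adjusted p = 0.922 in limma), and the sign turned negative without knockdown sample 1 (−0.0099), without knockdown sample 3 (−0.07) and with 2 of the other scalings. An antisense gene, Gm16183, shares 435 of its exon bases, or 3.81%, and had a mean of 1.86 FPKM. Since the labels record no strand-marking step, reads of this stretch cannot be told apart.

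The promoter of Cacna1b, the lowest member in the knockdown samples relative to its controls, is shown beside that of Cacna1i, a lower member on another chromosome. Both are the 250 bases before the start given by RefSeq (GRCm38.p6), 5′ to 3′ on the strand of the gene. Capitals mark the GC box, GGGCGG, searched on both strands.
Cacna1b, chr2:24763153-24763402, minus strand: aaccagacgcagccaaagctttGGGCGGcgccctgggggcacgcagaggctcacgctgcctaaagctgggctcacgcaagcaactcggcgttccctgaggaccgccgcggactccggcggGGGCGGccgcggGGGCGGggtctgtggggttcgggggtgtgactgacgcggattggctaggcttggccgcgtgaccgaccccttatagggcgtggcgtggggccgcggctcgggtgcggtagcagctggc
Cacna1i, chr15:80286988-80287237, plus strand: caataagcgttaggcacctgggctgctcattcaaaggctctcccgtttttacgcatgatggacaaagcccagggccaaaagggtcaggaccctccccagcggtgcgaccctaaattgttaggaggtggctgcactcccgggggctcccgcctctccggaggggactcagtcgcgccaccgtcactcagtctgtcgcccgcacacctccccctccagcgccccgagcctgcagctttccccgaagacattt
The Cacna1b stretch is 72.0% G or C with 29 CpG pairs and holds 3 GC boxes. The Cacna1i stretch is 62.4% G or C with 16 CpG pairs and holds 0. Among all 32851 promoter windows of this length, 32.7% hold a GC box and the median share of G or C is 52.4%. The full cAMP response element, TGACGTCA, which occurs in 1.55% of the windows, is in neither. These letters describe the windows, and no factor was measured on them. RefSeq windows were found for 5 of the 8 genes. Among those not shown, a window of Cacna1c, at 1.01 of its control mean, held 6 GC boxes. A window of Cacna1d, at 0.838 of its control mean, held 5. The window of Cacna1e and the other windows of Cacna1c and Cacna1d held 0. A link between GC boxes and the changes was not tested.

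The ratio between both presynaptic genes does not depend on how a library is scaled. Cacna1b over Cacna1a was 0.655, 0.755 and 0.779 in the controls against 0.492, 0.638 and 0.417 after knockdown. The highest knockdown ratio lay just under the lowest control ratio, so the groups did not overlap, but the gap was narrow. The mean ratio was 0.729 ± 0.0658 in the controls against 0.516 ± 0.112 after knockdown (SD, n = 3).

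Cacna1e encodes the R-type channel, which carries calcium into the dendritic spines of pyramidal neurons. The gene (ENSMUSG00000004110, chromosome 1, 154390731 to 154884501, minus strand) stood at 15.8, 18.1 and 16.3 FPKM in the controls against 15.3, 13.2 and 17.5 after knockdown. The groups overlapped, with knockdown sample 3 above 2 of the 3 controls. The log2 fold change was −0.13 (SE 0.11, 95% interval −0.39 to 0.14, adjusted p = 0.536 in limma).

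Of the L-type genes, Cacna1c encodes the main brain form and Cacna1d a form that opens at more negative voltages and supports pacemaking. Cacna1c (ENSMUSG00000051331, chromosome 6, 118587240 to 119196418, minus strand) had 7.25, 7.56 and 7.44 FPKM in the controls against 7.40, 6.45 and 8.68 after knockdown. The controls lay within a narrow band, and the knockdown samples spread to both sides of it. Its log2 fold change was 0.01 (95% interval −0.24 to 0.26, adjusted p = 0.976 in limma), and the sign turned with 3 of the other scalings and without control 1 or knockdown sample 3. Cacna1d (ENSMUSG00000015968, chromosome 14, 30039939 to 30491455, minus strand) had 5.97, 5.30 and 5.57 FPKM in the controls against 5.08, 4.18 and 4.85 after knockdown. All 3 knockdown values were below the controls, by a log2 fold change of −0.22 (SE 0.09, 95% interval −0.43 to 0.002, adjusted p = 0.214 in limma). The gene Chdh, at a mean of 2.00 FPKM on the opposite strand, shares 589 of the exon bases of Cacna1d, or 4.67%. Within each sample, Cacna1c over Cacna1d was 1.21 to 1.43 in the controls against 1.46 to 1.79 after knockdown, with no overlap.

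The T-type genes did not go one way. Cacna1h, a T-type gene also known from pain-sensing neurons, lies on chromosome 17 (ENSMUSG00000024112, 25374285 to 25433783, minus strand). It had 22.3, 23.7 and 28.5 FPKM in the controls against 20.8, 14.4 and 21.1 after knockdown. The gap between the groups was small beside the spread within them, and knockdown sample 2 stood apart from the rest. The log2 fold change was −0.40 (SE 0.16, 95% interval −0.78 to −0.01, unadjusted p = 0.0448, adjusted p = 0.200 in limma), and it was −0.23 without knockdown sample 2, a change of over 1.5 times.

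Cacna1i encodes the T-type channel with the slowest kinetics, known from the reticular nucleus of the thalamus. The gene (ENSMUSG00000022416, chromosome 15, 80287238 to 80398279, plus strand) was at 10.2, 10.4 and 11.4 FPKM in the controls against 9.93, 8.11 and 6.13 after knockdown. Knockdown sample 1 was close to the lowest control and knockdown sample 3 far below it. The log2 fold change was −0.38 (SE 0.15, 95% interval −0.75 to −0.02, unadjusted p = 0.0409, adjusted p = 0.191 in limma). It was −0.22 without knockdown sample 3 and −0.53 without knockdown sample 1.

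Cacna1g encodes the T-type channel of thalamic relay neurons. The gene (ENSMUSG00000020866, chromosome 11, 94408391 to 94474198, minus strand) had 10.5, 11.2 and 11.5 FPKM in the controls against 13.2, 14.3 and 11.0 after knockdown. Knockdown samples 1 and 2 were above every control, and knockdown sample 3 lay among them. The log2 fold change was 0.19 (SE 0.10, 95% interval −0.06 to 0.44, adjusted p = 0.316 in limma), and it was 0.29 without knockdown sample 3 and 0.11 without knockdown sample 2.

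Relative to one another, Cacna1g took a larger part of the T-type sum in the knockdown samples. It made up 24.4%, 24.8% and 22.3% of the summed FPKM of the 3 T-type genes in the controls against 30.02%, 38.9% and 28.7% after knockdown. Every knockdown share was above every control share. Cacna1i over Cacna1g was 0.972, 0.923 and 0.993 in the controls against 0.752, 0.566 and 0.559 after knockdown, again with no overlap. Both measures follow from the levels of the single genes given above and add no separate support.

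**Figure D2:**
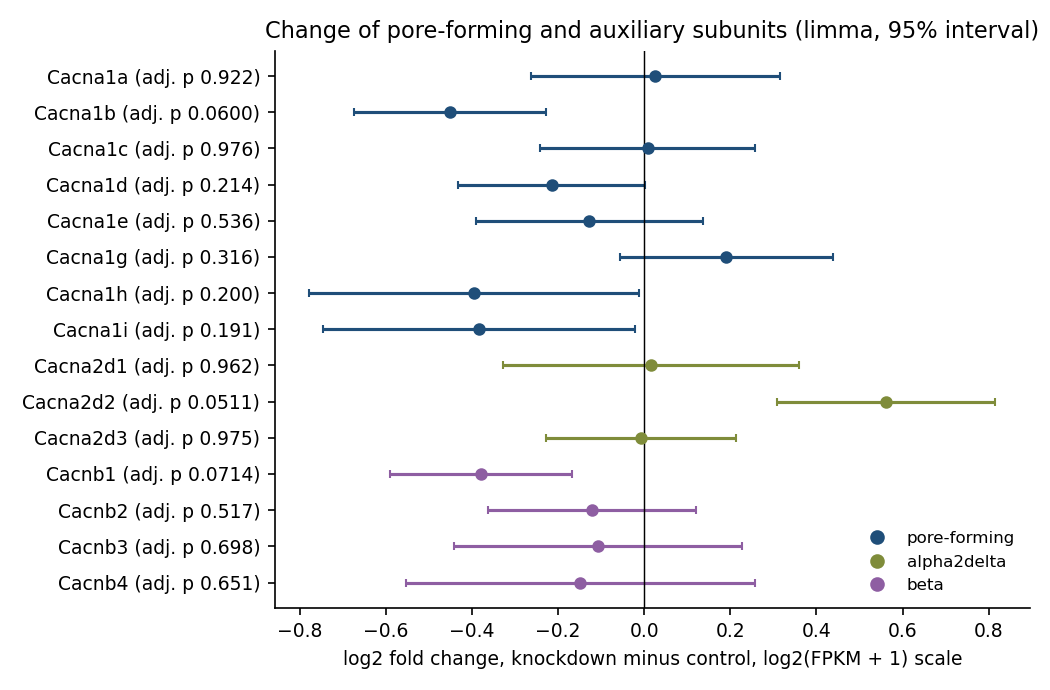
Log2 fold change (horizontal axis, log2(FPKM + 1) after knockdown less that of the controls) of the 8 pore-forming, 3 alpha2delta and 4 beta subunit genes tested, with 95% intervals from limma and the p-value adjusted over 14012 genes beside each name. Cacna1b at −0.45, Cacnb1 at −0.38 and Cacna2d2 at 0.56 have intervals that leave out 0, as do those of Cacna1h and Cacna1i, and no adjusted p is under 0.05.

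FPKM is a value per length, so the levels of the genes can be ordered. In the controls Cacna1h was highest at 24.8 ± 3.25 FPKM, before Cacna1a at 18.4 ± 0.449, Cacna1e at 16.8 ± 1.22, Cacna1b at 13.5 ± 1.48, Cacna1g at 11.1 ± 0.501, Cacna1i at 10.6 ± 0.640, Cacna1c at 7.42 ± 0.155 and Cacna1d at 5.61 ± 0.336 (SD, n = 3). The ranges of Cacna1a and Cacna1e overlapped, as did those of Cacna1g and Cacna1i. The other neighbours in this order were apart in all 3 controls. In the knockdown samples Cacna1a (19.0 ± 3.22), Cacna1h (18.8 ± 3.78) and Cacna1e (15.3 ± 2.14) overlapped in turn, as did Cacna1e with Cacna1g (12.8 ± 1.71). Cacna1g now lay above Cacna1b (9.55 ± 0.437) in all 3 samples, whereas Cacna1b had been above Cacna1g in all 3 controls.

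The other pore-forming genes, Cacna1f of the retina and Cacna1s of skeletal muscle, were close to 0. Cacna1f had at most 0.202 FPKM and Cacna1s at most 0.0974 in any sample, and neither was tested.

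This order rests on the exon length by which the authors divided. That length covers the exons of all transcripts of a gene, and it was 25131 bases for Cacna1e and 21191 for Cacna1c but 9763 for Cacna1h. When the same reads were divided by the length of the transcript with the longest coding sequence, an alternative chosen after seeing the data, Cacna1c moved from the seventh place to the fourth in the controls, at 23.6 ± 0.492 on the FPKM scale. By that measure Cacna1h (29.4 ± 3.86), Cacna1e (28.2 ± 2.05) and Cacna1a (26.6 ± 0.647) had overlapping ranges in the controls, with Cacna1h at 26.4, 28.2 and 33.8 and Cacna1e at 26.7, 30.5 and 27.5 in controls 1 to 3. Cacna1e was thus above Cacna1h in 2 of 3 controls. In the knockdown samples Cacna1h had the fourth highest mean by that measure. The transcript model used for Cacna1c has 6669 bases, of which 6666 are coding, so it holds almost no UTR, and the short length raises its value.

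The 8 genes together had a sum of 102, 108 and 114 FPKM in the controls against 101, 86.0 and 99.95 after knockdown, a ratio of means of 0.885. The lowest control and the highest knockdown sum were nearly equal. The T-type genes made up 41.8% to 44.9% of this sum in the controls against 38.2% to 43.4% after knockdown, so this share overlapped. Cacna1b made up 11.6% to 12.9% in the controls against 9.05% to 11.5% after knockdown, without overlap. Cacna1a made up 16.6% to 17.8% in the controls against 18.0% to 21.7% after knockdown, also without overlap, although its own level overlapped.

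**Figure D3:**
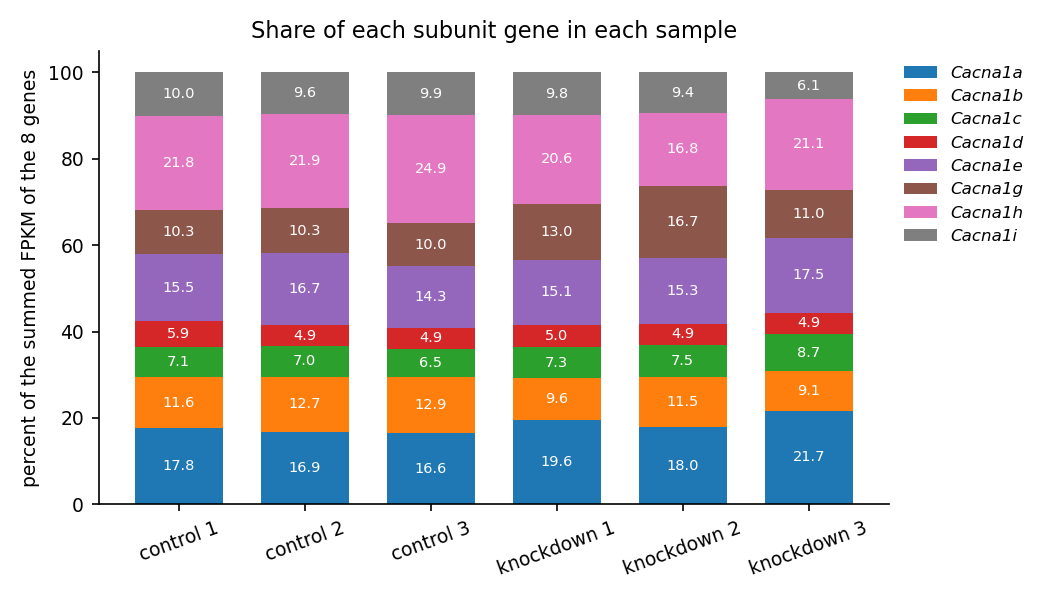
Share of each subunit gene (vertical axis, percent of the summed FPKM of the 8 genes) in each of the 6 samples. The Cacna1b band is 11.6% to 12.9% in the controls against 9.05% to 11.5% after knockdown, and the Cacna1g band reaches 16.7% in knockdown sample 2 from 10.02% to 10.3% in the controls.

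The auxiliary subunits were described from lists of the other genes of the pathway. Cacna2d2, an alpha2delta subunit that binds gabapentin, had 4.96, 5.66 and 4.80 FPKM in the controls against 7.92, 9.21 and 7.15 after knockdown. The groups were well apart, at 1.57 of the control mean and a log2 fold change of 0.56 (SE 0.11, adjusted p = 0.0511 in limma). It was called in 5 of 17 alternatives, with an adjusted p of 0.0316 to 0.150 over all of them. Cacna2d1, the main gabapentin target, and Cacna2d3 stood at 1.02 and 0.996 of the control means, with overlapping groups and a sign that turned in 5 alternatives each. Cacna2d4 was under the filter, at 0.246 ± 0.0586 against 0.645 ± 0.214 FPKM (SD, n = 3).

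All 4 beta subunits, which bind an intracellular loop of the high-voltage channels, had negative log2 fold changes, as had 46.8% of all genes tested, and those of Cacnb3 and Cacnb4 turned positive in 1 alternative each. None was called, and 1, Cacnb1, was lower at an unadjusted p under 0.05, beside 7.98% of all genes tested. Cacnb1 had 36.7, 36.6 and 41.6 FPKM in the controls against 31.3, 26.7 and 29.6 after knockdown. No knockdown value reached the controls, at a log2 fold change of −0.38 (SE 0.09, adjusted p = 0.0714 in limma, and 0.0514 to 0.256 over 17 alternatives). Cacnb3, the most abundant, stood at 63.7 ± 10.9 against 68.2 ± 6.60 FPKM, Cacnb4 at 8.43 ± 1.17 against 9.57 ± 2.31 and Cacnb2 at 4.34 ± 0.497 against 4.80 ± 0.422, all 3 with overlapping groups.

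Of the 7 gamma family genes tested, most are known as partners of AMPA receptors, and 0 were called by limma. At an unadjusted p under 0.05, 1, Cacng2, was lower, beside 7.98% of all genes tested. Cacng2, or stargazin, stood at 9.62 ± 0.432 FPKM after knockdown, from 11.8 ± 1.097 (adjusted p = 0.127 in limma) and Cacng4 at 1.22 of the control mean (adjusted p = 0.240). Among 16 tested proteins that bind or regulate these channels, 0 were called, and 2 were higher and 5 lower at an unadjusted p under 0.05, beside 15.7% and 7.98% of all genes tested. Their lowest p-values belonged to Apba1, which links channels to the vesicle machinery, at 1.30 of the control mean (adjusted p = 0.0934 in limma), and Rims1, which tethers them at the active zone, at 0.837 (adjusted p = 0.0994). The 4 tested potassium channels opened by calcium had 0 calls, and 0 at an unadjusted p under 0.05, with Kcnn3 at 1.31 and Kcnn1 at 1.07 of the control means.

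Among 9 RNA-binding proteins known to act on exons of calcium channel genes, Rbfox2 was called lower, at 31.1 ± 3.33 against 45.5 ± 0.715 FPKM (log2 fold change −0.54, adjusted p = 0.0452 in limma). It was called in 5 of 15 alternatives, and its adjusted p ran from 0.0361 to 0.149. With any one sample other than knockdown sample 2 left out it was not called. Rbfox1 stood at 0.783 of the control mean (adjusted p = 0.273), with overlapping groups. Across all 43 tested genes of these lists 0 were called higher and 1 lower, beside 1.20% and 0.228% of all genes tested. The median log2 fold change of the 43 was −0.08. At an unadjusted p under 0.05, 3 were higher and 8 lower, beside 15.7% and 7.98% of all genes tested.

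By a root mean square difference over the 6 samples, after each gene was set to its own control mean on the log2(FPKM + 1) scale, the genes most like Cacna1b were Ksr1, Nol6 and Atp6v1g2. They differed from it by 0.046, 0.058 and 0.064. Ksr1, a scaffold of the ERK cascade, had 27.6, 29.8 and 34.2 FPKM in the controls against 22.7, 21.5 and 20.4 after knockdown. Those most like Cacna1g were Alk, Foxn3 and Aff1, at 0.027, 0.030 and 0.035. All 3 had their highest value in knockdown sample 2, as Cacna1g had, but they were picked for likeness over these same samples.

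Marker lists of cells and of neighbouring tissue moved together with these genes in part, and in bulk tissue fewer cells of a type and less RNA per cell cannot be told apart. Markers of neurons were present throughout, with Snap25, of the release machinery, at 159.9 to 241 FPKM and Syt1, the calcium sensor of release, at 121 to 150.1. Neither was called, although for both every knockdown sample was below every control, as in 11.8% of all genes tested. Of 10 general neuronal markers 7 had negative log2 fold changes, 0 were called, and the median was −0.17, as for the 8 subunit genes. At an unadjusted p under 0.05, 1 was higher and 3 lower, beside 15.7% and 7.98% of all genes tested. The summed level of the 10 markers was 1071 to 1092 FPKM in the controls against 898 to 1066 after knockdown. Their mean log2 level relative to the controls was −0.22, −0.04 and 0.06 in knockdown samples 1 to 3. That level overlapped the controls, which ran from −0.04 to 0.03. When each sample was scaled to these markers, an alternative chosen after seeing the data, Cacna1b had a log2 fold change of −0.39 with an adjusted p of 0.173 in limma. The 8 genes were not tested against these markers in any other way.

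In summed level, thalamic markers lay above every control in all 3 knockdown samples. The log2 fold changes of all 8 tested were positive, and their median was 1.34. Ramp3, a receptor-modifying protein, was the 1 called higher, beside 1.20% of all genes tested. At an unadjusted p under 0.05, 7 were higher, beside 15.7% of all genes tested. The 10 listed markers summed to 18.3 to 27.9 FPKM in the controls against 40.5 to 105 after knockdown, and none was listed at 0 in any sample. As a mean log2 level less that of the controls, they reached 0.53, 1.70 and 1.31 in knockdown samples 1 to 3, while that of Cacna1g was 0.24, 0.35 and −0.01 and that of Cacna1i −0.09, −0.35 and −0.71. The highest Cacna1g value and the highest thalamic score thus fell in the same sample, whereas knockdown sample 3 had a high thalamic score and a Cacna1g level inside the control range. The part of thalamic tissue in the Cacna1g values was not tested.

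As a mean log2 level, dentate granule cell markers lay below every control in all 3 knockdown samples. Of 8 markers 7 had negative log2 fold changes, and the median was −0.59. The remaining marker, Prox1, had 14.4 ± 3.25 FPKM after knockdown, from 13.8 ± 1.71 (SD, n = 3), with overlapping groups. Only 4 of the 8 markers had groups that did not overlap. Lct was the 1 called lower, beside 0.228% of all genes tested. At an unadjusted p under 0.05, 4 were lower, beside 7.98% of all genes tested. The 8 markers summed to 120 to 151 FPKM in the controls against 67.7 to 121 after knockdown. These sums overlap at their edge, and none of the markers was listed at 0. Their mean log2 level was −0.81, −0.64 and −0.35 relative to the controls in knockdown samples 1 to 3, beside −0.23, −0.74 and −0.22 for Cacna1h and −0.42, −0.41 and −0.52 for Cacna1b. The order of the samples differed between the marker list and both genes, and the part of granule cells in their values was not tested. Scores of CA3 and mossy cell markers fell apart within the knockdown group, at −0.97, 0.06 and 0.33. As a mean log2 level, microglia and vessel markers were above every control in every knockdown sample. So were astrocyte markers, at 0.20 to 0.39 against at most 0.08 in the controls. Oligodendrocyte markers were too, but narrowly, at 0.10 to 0.32 against at most 0.08. All 8 microglia markers were positive (median 0.62, 0 called). So were all 8 vessel markers tested (median 0.69), with 1 called higher, beside 1.20% of all genes tested. In both the microglia and the vessel list 7 were higher at an unadjusted p under 0.05, beside 15.7% of all genes tested.

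Choroid plexus markers spread widely, and the groups overlapped. They summed to 100.4 to 3554 FPKM in the controls against 1467 to 5398 after knockdown, with 8 of 8 positive, 0 called and a median of 2.11. At an unadjusted p under 0.05, 5 were higher, beside 15.7% of all genes tested. Interneuron markers had 7 of 8 negative and a median of −0.23, and CA1 markers 4 of 6 negative and −0.10. CA3 and mossy cell markers had 5 of 6 negative and −0.13, and all 3 lists had 0 called. At an unadjusted p under 0.05, 3 interneuron markers were lower, beside 7.98% of all genes tested. By that rule 1 CA1 marker was higher, beside 15.7% of all genes tested, and 0 CA3 and mossy cell markers were higher or lower. As a mean log2 level less that of the controls, interneuron markers stood at 0.008, −0.20 and −0.50 in knockdown samples 1 to 3. CA1 markers stood at 0.40, −0.14 and −0.35, and both levels overlapped the controls. Cacna1i had the same order of samples, at −0.09, −0.35 and −0.71, and the part of these cells in its values was not tested. Interneuron markers summed to 647 to 672 FPKM in the controls against 400 to 584 after knockdown. Striatal and cortical markers had 8 of 9 positive and a median of 0.36 with 1 called. Astrocyte markers had 6 of 8 positive and 0.11 with 2 called, and oligodendrocyte markers 8 of 8 and 0.20 with 0 called. The calls in the striatal and cortical list and in the astrocyte list were all higher, beside 1.20% of all genes tested. At an unadjusted p under 0.05, 2 striatal and cortical, 3 astrocyte and 2 oligodendrocyte markers were higher, and 1 astrocyte marker was lower. Of all genes tested, 15.7% were higher and 7.98% lower by that rule.

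**Figure D4:**
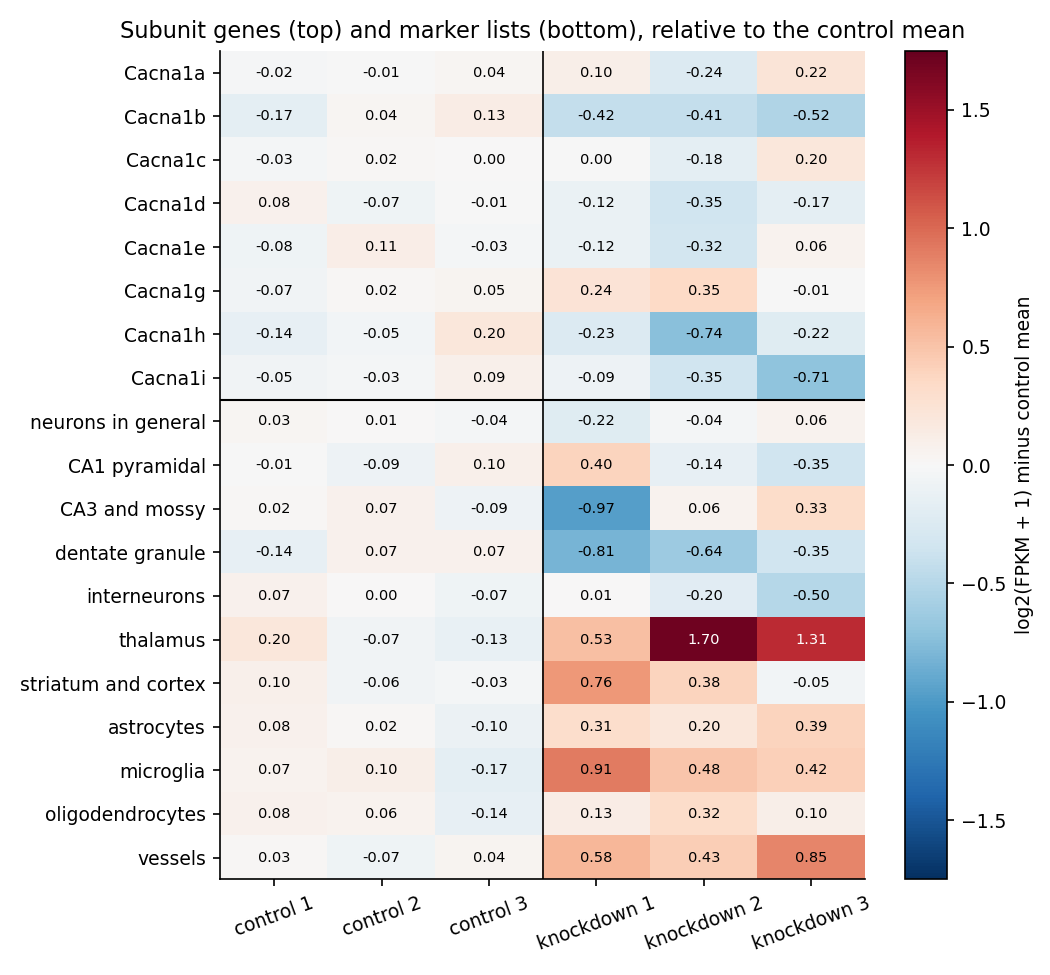
Level of each subunit gene (upper block) and mean level of 11 marker lists (lower block) in each sample, as log2(FPKM + 1) minus the control mean, with blue for lower and red for higher. Cacna1b is at −0.41 to −0.52 in all 3 knockdown samples, while Cacna1h and Cacna1i are lowest in different samples, at −0.74 in knockdown sample 2 and −0.71 in knockdown sample 3.

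The samples within each group were not alike in these genes. Control 1 held the lowest control value for 7 of the 8 genes, and control 3 the highest for 5. Knockdown sample 2 held the lowest value of its group for 5 of the 8 genes, among them Cacna1a, Cacna1c and Cacna1e, and knockdown sample 3 the highest for these 3 and for Cacna1h. Cacna1b was the member whose knockdown values, relative to the control mean, varied least, at −0.41 to −0.52.

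The 8 genes are long, with spans of 59.5 to 609.2 kb. Of protein-coding genes tested that span over 200 kb, 778 in number and 4 of them members, 51.7% had negative log2 fold changes and the median was −0.0044. Between 100 and 200 kb the median was 0.05 over 1116 genes, and between 50 and 100 kb it was 0.04 over 1857. The transcripts of Cacna1a to Cacna1e shared no 50-base word with any other gene of the family, and those of Cacna1g, Cacna1h and Cacna1i shared 0.182%, 0.0102% and 0.201%.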

How the data were processed

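RNA of 6 mouse hippocampus samples was sequenced after poly(A) selection, per the labels' protocols. The authors deposited 1 table of FPKM values per gene, built on mm10 per the submitters' processing notes. The sources used here name no aligner, counting program or annotation. Gene lengths, spans and overlaps were taken from GENCODE M21, which gave the same positions for all 8 genes, and 30641 of the gene identifiers matched it.

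FPKM times exon length gave whole multiples of 1 step per sample, within 0.01 reads for 90.8% to 91.0% of the values above 0. That gives the read totals used for the scaling, so that on 1 kb of exon 1 read equals 0.0553 to 0.0602 FPKM. The limit set by a count of 0, taken as 3 reads, equals 0.166 to 0.180 FPKM. These floors cover counting error only. Cacna1e came out whole only with 25131 bases in place of 25228.

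limma 3.58.1 in R 4.3.3 was fitted to log2(FPKM + 1) of genes averaging 1 FPKM or more (mean-variance trend, group as the only term, two-sided, Benjamini-Hochberg over all genes tested). The pseudocount understates changes of low genes. The procedure was also run on simulated data, whose outcome is not given here and is not used as support.

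The members and lists were chosen with earlier results of these data known. Genes named were the 8 members, Sfswap, all alpha2delta and beta subunits, the 2 genes of lowest p in each other pathway list, markers a result turns on, and the 3 genes most like the member of lowest p in each direction. A negative binomial count test of the recovered reads was also run once. It called Cacna1b lower, as voom did, and more genes in both directions than the main test. The rules followed here bar that test for an FPKM table, so it is not among the alternatives, although voom on the same reads is. Gene overlaps, levels per transcript and promoter letters were added after seeing the data. Ratios between members and shares of the T-type sum were not in the plan. How often such ratios of other genes separate the groups was not counted. Comparing protein sequences was planned and not done here. Alternatives were a pseudocount of 0.1, no filter, a filter at 5 FPKM, other scalings, no trend, a replicate block, omission of each sample in turn, and voom on the recovered reads. Trimmed mean scaling with voom, scaling to the neuronal markers and a filter at 1 FPKM in at least 3 samples were added after seeing the data. Same-numbered samples deviated from their group means with correlations of 0.0502, 0.0429 and −0.00837, and differently numbered ones with −0.132 to 0.083. The main fit did not pair samples, and with 3 per group these values cannot exclude a pairing.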

Additional observations from a re-analysis of the deposited data

How the results depend on the processing

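The direction of Cacna1b, Cacna1d, Cacna1e, Cacna1g, Cacna1h and Cacna1i held in all 17 alternatives, and none of them was called in any of these, except Cacna1b with voom on the recovered reads (log2 fold change −0.49, adjusted p = 0.0393) and with voom and trimmed mean scaling (−0.52, 0.0395). Over all 17 the adjusted p of Cacna1b ran from 0.0393 to 0.182 and its log2 fold change from −0.53 to −0.39.

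The sign of Cacna1a turned with median-of-ratios scaling (−0.000715) and with voom and trimmed mean scaling (−0.00099), without knockdown 1 or 3, and ran from −0.072 to 0.16 with each sample left out. That of Cacna1c turned with median-of-ratios scaling (−0.017) and with equal FPKM sums (−0.012), with voom and trimmed mean scaling (−0.020), without control 1 or knockdown 3, and ran from −0.089 to 0.10 with each sample left out.

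Sfswap lost its call with no filter (−0.77), no variance trend (−0.77), the replicate block (−0.77), equal FPKM sums (−0.79) and scaling to neuronal markers (−0.71), and ran from −0.84 to −0.73 with each sample left out, keeping its call only without knockdown 2.

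The counts of genes called moved strongly. Higher and lower calls were 290 and 64 at a pseudocount of 0.1, 498 and 95 with voom, 342 and 96 with voom and trimmed mean scaling, 301 and 66 with a filter at 1 FPKM in at least 3 samples, 1 and 2 with equal FPKM sums, 72 higher with median-of-ratios scaling and 65 lower with a filter at 5 FPKM. They were 0 and 0 with no filter, no trend, the replicate block and scaling to neuronal markers. With each sample left out they ran from 0 to 155 and from 0 to 28, the highest without knockdown 2. Unadjusted p under 0.05 gave 2938 higher and 1478 lower with no filter, 2213 and 1076 with no trend, 2073 and 964 with the block, and 2306 and 453 with neuronal scaling. Without control 1, control 2 or knockdown 1 they were 1746 and 756, 1651 and 683, and 1854 and 1088, with 0 called each time. Without control 3, 8 were called higher and 0 lower, with 1825 and 771 unadjusted.

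Among the auxiliary subunits and partners, Cacna2d2 was the 1 gene called higher at a pseudocount of 0.1, at 5 FPKM, with voom under either scaling and with a filter at 1 FPKM in at least 3 samples. Rbfox2 was no longer called, leaving 0 lower, with no filter, equal FPKM sums, no trend, the replicate block and neuronal scaling, and it was not among the genes tested with voom, where the lower count was 0. With each sample left out the lower count was 0 to 1. The cause of these changes was not tested. The replicate block changed no call of the 8 genes. No scaling moved the median of all genes by over 0.1.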
